A study of Homo sapiens with 6 samples.

Results

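The integrated stress response and tRNA synthetase genes examined here are 34 named transcripts of the ATF4 and CHOP programme, taken by symbol from a table of 60676 Ensembl gene IDs. Each of the 34 symbols matched a single ID, and all 34 passed the filter on low counts that left 15577 genes for testing. The study sequenced RNA in 6 libraries from HEK293A, a flat-growing subline of HEK293, itself an established line of human embryonic kidney origin. One group of 3 libraries came from cells given DMSO, the vehicle, and the other 3 from cells given 20 nM VT01454, for which the labels give only this code. Both treatments lasted 2 h, and the labels name no genetic alteration in either group. The series title names the Hippo pathway, phosphoinositides and PITP, the phosphatidylinositol transfer proteins, and the comparison of compound with vehicle asks which transcripts differed after a short treatment.

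The integrated stress response begins when a kinase that senses amino acid shortage, misfolded protein in the endoplasmic reticulum, double-stranded RNA or mitochondrial distress phosphorylates the translation initiation factor eIF2. General protein synthesis then slows, while the mRNA of the transcription factor ATF4 is translated better because of short upstream reading frames. ATF4, with C/EBP family partners, raises genes for amino acid synthesis and uptake, for aminoacyl-tRNA synthetases, which load tRNAs with their amino acids, and for CHOP, the product of DDIT3. A phosphatase subunit encoded by PPP1R15A closes the loop by bringing protein phosphatase 1 back to eIF2. RNA sequencing reads the transcripts of this programme, not the phosphorylation of eIF2 or the amount of ATF4 protein.

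The libraries held 19126039 to 28880374 counts. Levels are given as CPM, counts scaled to a common library size, and a single count (1) equalled 0.0346 to 0.0523 CPM. Pairs of compound libraries were alike (chi-square per degree of freedom 2.05 to 2.79) and pairs of vehicle libraries were not (7.81 to 19.9), so much of the spread lay among the vehicle libraries. Vehicle library 2 stood furthest from the compound libraries (16.1 to 18.1), where vehicle libraries 1 and 3 gave 7.53 to 8.49. Of the genes listed for the HEK293 line, KRT8, NEFL, KRT18 and VIM were abundant, NEFM ranged from 0.140 to 6.58 CPM, PAX2 stayed at or below 0.708 CPM and LHX1 was near 0. Of 5 leukocyte markers, PTPRC, CD3E and TYROBP had no count in any library, and the summed level of the 5 was at most 0.522 CPM. The 6 fibroblast and endothelial markers summed to 24.5 to 36.7 CPM with vehicle and 21.0 to 31.8 CPM with compound, mostly from COL1A1 and COL1A2, with VWF at 1.06 to 2.36 CPM. The 4 squamous markers summed to 3.73 to 4.91 and 2.61 to 3.93 CPM, nearly all from SFN.

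After 2 h with the compound 1 of the 34 transcripts, PPP1R15A, was higher than with vehicle, none was lower and 33 did not pass (edgeR quasi-likelihood test, Benjamini-Hochberg adjusted p below 0.05). That is 2.94% of the list, while 1.89% of all tested genes were called, 1.27% higher and 0.616% lower, so the share on the list was near the background. DDIT3, CHAC1, ASNS, SESN2 and DDIT4, transcripts often read as signs of the response, did not pass either. The median log2 fold change of the 34 was -0.0033, with 17 values above 0 and 17 below, beside a median of -0.0073 over all tested genes. For 28 of the 34 (82.4%) the 95% interval of the fold change lay inside 1.5-fold in either direction, and for 20 (58.8%) inside 1.2-fold. Over all tested genes these shares were 70.9% and 32.4%. Intervals are wider at low counts, and the list was not matched to all tested genes for level. These intervals are not adjusted for the number of genes. Whether the 3 libraries per group stem from separate cultures is not in the labels, and the p-values therefore reflect only how far these libraries spread, which may be technical. In bulk RNA, fewer cells that express a gene and less of its RNA per cell cannot be told apart.

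**Figure D1:**
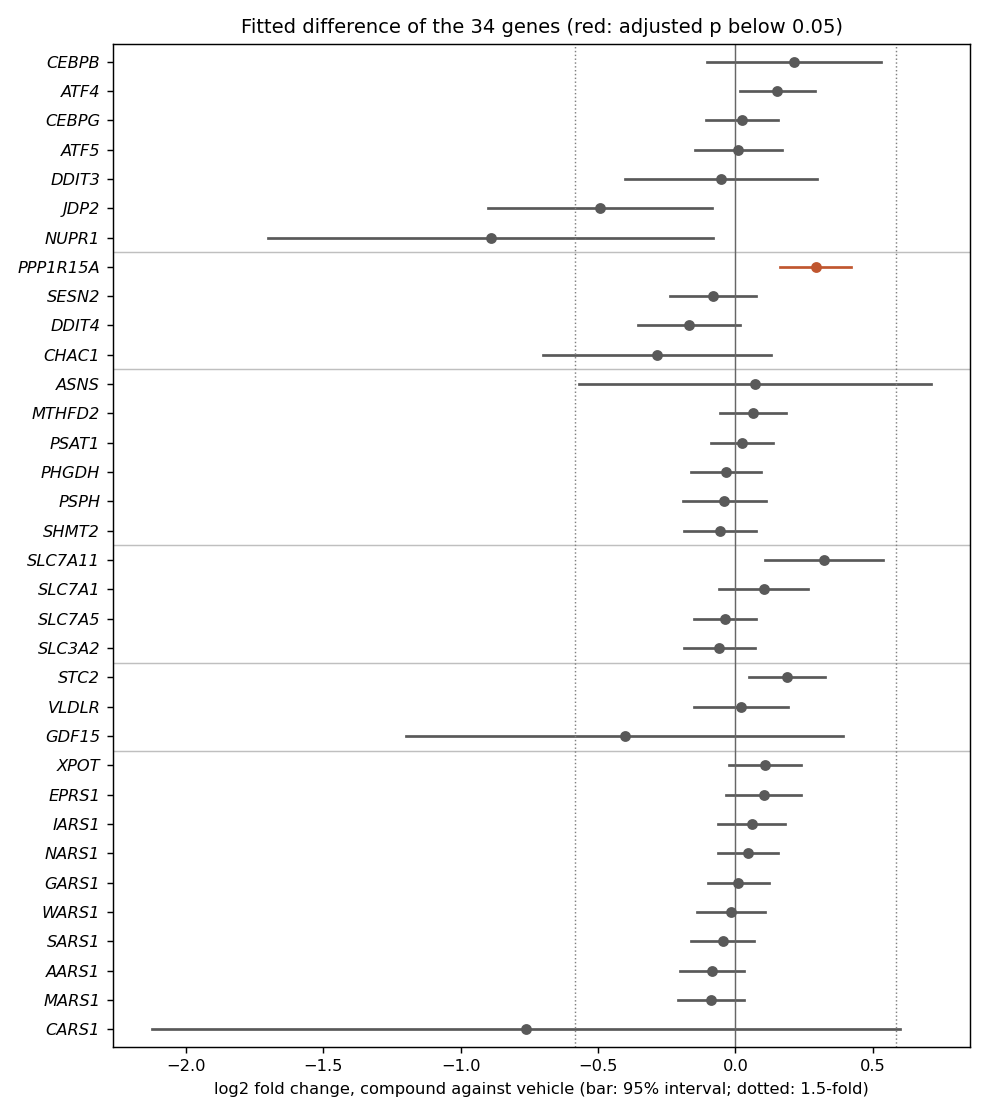
Fitted log2 fold change of compound against vehicle for the 34 genes, grouped by role, with the 95% interval as a bar and dotted lines at 1.5-fold. PPP1R15A, in red, is the one value that passed at an adjusted p below 0.05, and the widest intervals belong to CARS1, NUPR1 and GDF15.

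PPP1R15A encodes GADD34, the inducible subunit that directs protein phosphatase 1 to eIF2 and so ends the response. It lies on chromosome 19 at 48872392 to 48876057, plus strand (ENSG00000087074, hg38). Its level was 66.8, 68.1 and 63.8 CPM in vehicle libraries 1, 2 and 3 and 82.2, 81.1 and 79.9 CPM in compound libraries 1, 2 and 3. Every compound library was above every vehicle library, and the gap between the groups was wider than the spread within either. The vehicle mean was 66.3 ± 2.2 CPM and the compound mean 81.1 ± 1.14 CPM (SD, n = 3 per group). The fitted log2 fold change was 0.29 ± 0.06 (SE), which is 1.22-fold with a 95% interval of 1.12 to 1.34 (edgeR adjusted p = 0.0255). With vehicle library 1 or any one of the compound libraries removed the adjusted p was 0.122 to 0.177, while the log2 fold change stayed between 0.26 and 0.31 whichever library was left out. PPP1R15A also passed in DESeq2, as the one call among the 31 members that kept an adjusted p there (3.54% of all genes with one were called), and in a fit without the count filter, next to SLC7A11 (2.29% of all genes called).

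The promoter of PPP1R15A is printed here because this was the one transcript of the list that was called. The 221 bases at chr19:48872171-48872391, plus strand, end where the first GENCODE 29 exon begins, and come from RefSeq promoter windows on GRCh38.p14. Capitals mark a full cyclic AMP response element, TGACGTCA, a palindrome bound by CREB and ATF family factors.
PPP1R15A: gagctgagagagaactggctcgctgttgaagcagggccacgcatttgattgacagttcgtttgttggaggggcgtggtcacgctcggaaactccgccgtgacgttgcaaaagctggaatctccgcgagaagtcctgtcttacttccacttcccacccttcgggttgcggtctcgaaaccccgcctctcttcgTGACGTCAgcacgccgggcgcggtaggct
The element begins 58 bases before the RefSeq start. It was found in the windows (250 bases before to 50 after a start, either strand) of 1 of the 30 listed genes with a promoter in the table, and of 2.25% of all 27305 genes there. A match to these letters describes the sequence and does not show that a factor binds.

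Among the transcription factors of the list, ATF4 itself was abundant. It measured 524, 589 and 504 CPM in vehicle libraries 1 to 3 and 621, 583 and 594 CPM in compound libraries 1 to 3. Vehicle library 2 reached into the compound range, and the other vehicle libraries lay below it. The log2 fold change was 0.15 ± 0.06, or 1.11-fold (95% interval 1.01 to 1.22), and did not pass (edgeR adjusted p = 0.294). It passed only when vehicle library 2 was left out, at 0.22 (adjusted p = 0.00566).

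DDIT3 encodes CHOP, the factor that follows ATF4 when stress persists. Its level was 4.34, 5.11 and 3.80 CPM with vehicle and 3.86, 4.58 and 4.29 CPM with compound, and the groups overlapped. The log2 fold change was -0.05 ± 0.16 (edgeR adjusted p = 0.905), with a 95% interval of 0.757-fold to 1.23-fold. GENCODE 29 places DDIT3 tail to tail with MARS1, and 39.6% of its exonic bases are shared with exons of other genes on either strand. Reads there may be split or left uncounted, since the strand setting is not given in the sources used here.

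CEBPB and CEBPG encode C/EBP partners of ATF4. CEBPB measured 18.3, 20.4 and 12.7 CPM with vehicle and 18.6, 21.4 and 19.2 CPM with compound. Vehicle library 3 stood lowest, and without it the log2 fold change of 0.21 ± 0.14 (edgeR adjusted p = 0.530) was 0.029. CEBPG stayed between 96.5 and 106 CPM in all 6 libraries, and ATF5, a relative of ATF4 that is under similar translational control, between 26.0 and 28.4 CPM.

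The lowest log2 fold changes among the factors belonged to a pair of low transcripts, neither of which passed. NUPR1, a small chromatin protein induced by stress, had 41, 28 and 19 counts with vehicle and 19, 23 and 14 with compound. That is 1.93, 1.46 and 0.701 CPM against 0.667, 0.924 and 0.572 CPM, and vehicle library 3 lay inside the compound range. Its log2 fold change was -0.89 ± 0.37 (edgeR adjusted p = 0.298). It passed without vehicle library 3, at -1.24 (adjusted p = 0.0247), and stood at -0.54 without vehicle library 1. JDP2, a basic leucine zipper repressor that pairs with JUN family proteins, measured 3.26, 4.33 and 3.17 CPM with vehicle and 2.81, 2.25 and 2.53 CPM with compound. Its groups did not overlap, at a log2 fold change of -0.49 ± 0.19 (edgeR adjusted p = 0.258).

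**Figure D2:**
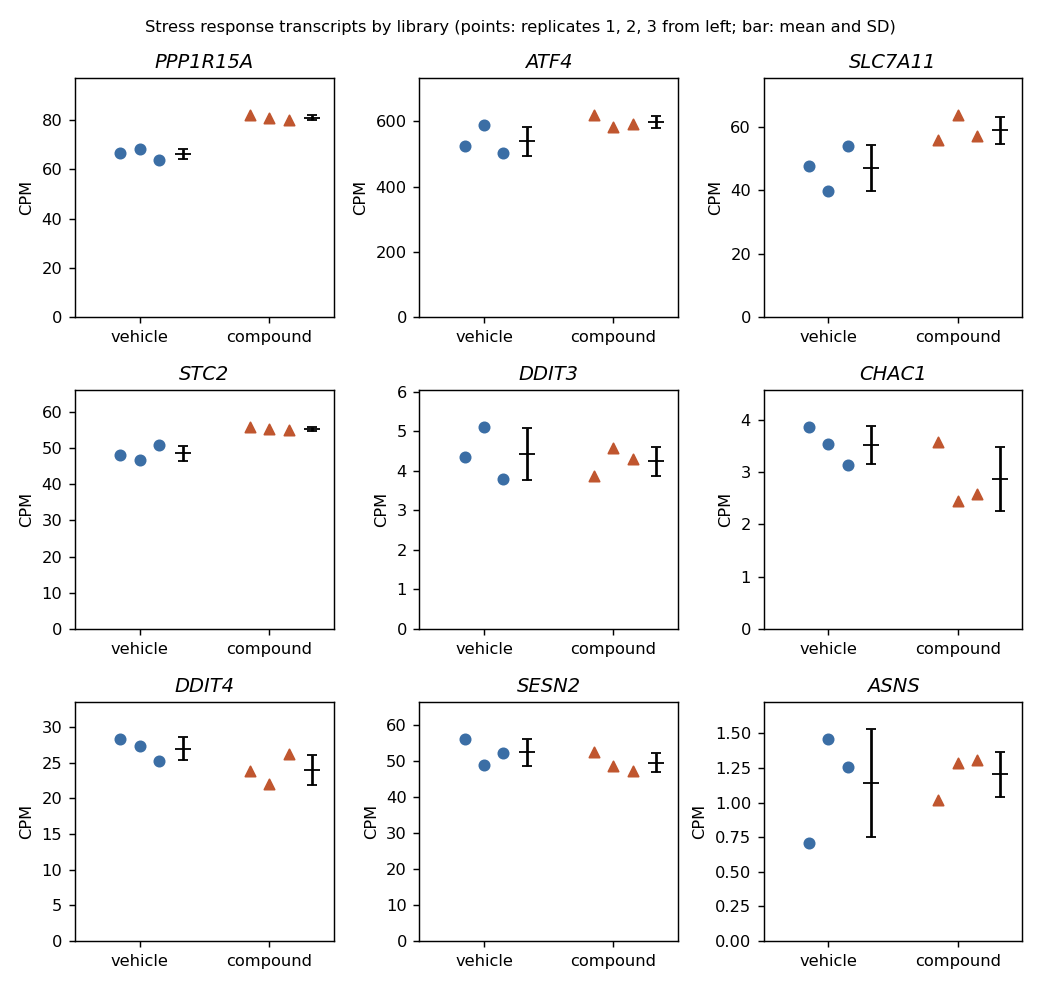
CPM of 9 transcripts in each library (vertical axis from 0), with vehicle as circles, compound as triangles and the mean with its SD beside each group. PPP1R15A, SLC7A11 and STC2 are separated between the groups, while DDIT3, CHAC1, DDIT4, SESN2 and ASNS overlap.

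The 3 genes grouped by role with PPP1R15A all had log2 fold changes below 0 and none passed. DDIT4, which encodes the mTORC1 inhibitor REDD1, measured 28.4, 27.4 and 25.2 CPM with vehicle and 23.8, 22.0 and 26.2 CPM with compound (log2 fold change -0.17 ± 0.09, edgeR adjusted p = 0.398). Only compound library 3 reached the vehicle range. SESN2, a leucine sensor that also restrains mTORC1, measured 56.1, 48.7 and 52.2 against 52.4, 48.7 and 47.3 CPM, and its groups overlapped (-0.08 ± 0.07, edgeR adjusted p = 0.641). CHAC1 encodes an enzyme that degrades glutathione and is among the steepest responders to ATF4 in many cell types. It measured 3.87, 3.55 and 3.14 CPM with vehicle and 3.58, 2.45 and 2.58 CPM with compound, where compound library 1 alone reached the vehicle range (-0.28 ± 0.19, edgeR adjusted p = 0.527). The 95% interval for CHAC1 ran from 0.616-fold to 1.09-fold. GENCODE 29 has the antisense gene DDIT4-AS1 over 41.2% of the exonic bases of DDIT4, with no count in any library.

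Enzymes of serine synthesis and of mitochondrial one-carbon metabolism were abundant and close to their vehicle levels. PHGDH, PSAT1 and PSPH, the serine synthesis enzymes in order, had log2 fold changes of -0.03 ± 0.06, 0.02 ± 0.05 and -0.04 ± 0.07. SHMT2 and MTHFD2, which pass the serine carbon to folate in mitochondria, stood at -0.06 ± 0.06 and 0.06 ± 0.06. None of the 5 passed (edgeR adjusted p = 0.631 to 0.870), and each 95% interval lay inside 1.2-fold. PSAT1 measured 259.7, 275 and 271 CPM with vehicle and 276, 271 and 271 CPM with compound.

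ASNS, the asparagine synthetase gene, was the exception in level. It had 15, 28 and 34 counts with vehicle and 29, 32 and 32 with compound, or 0.708, 1.46 and 1.25 against 1.02, 1.29 and 1.31 CPM. Vehicle library 1 was lowest, and the groups overlapped. The log2 fold change was 0.07 ± 0.30 (edgeR adjusted p = 0.931), and the 95% interval of 0.674-fold to 1.64-fold leaves a change of moderate size undetectable at this depth. Without vehicle library 1 the value was -0.17. In GENCODE 29 another gene on the same strand, AC079781.5, covers 44.6% of the exonic bases of ASNS. That gene had 12, 2 and 7 counts with vehicle and 10, 13 and 6 with compound. ASNS was the only member with over 20% of its exonic bases shared on its own strand, and the part of this overlap in its low count was not tested.

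Of the 4 amino acid transporter genes, SLC7A11 had the highest fold change of the whole list. It encodes xCT, which exchanges glutamate for cystine and so supplies glutathione synthesis. Its level was 47.6, 39.7 and 54.0 CPM in vehicle libraries 1, 2 and 3 and 56.0, 63.9 and 57.3 CPM in the compound libraries. The groups did not overlap, but vehicle library 3 lay just under the lowest compound library. The log2 fold change was 0.32 ± 0.10, or 1.25-fold (95% interval 1.08 to 1.45), and it did not pass (edgeR adjusted p = 0.151). It passed without vehicle library 3 (0.43, adjusted p = 0.00615) and without the count filter (0.33, adjusted p = 0.00143), and was 0.21 without vehicle library 2.

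SLC7A5 and SLC3A2 encode the light and heavy chains of the LAT1 exchanger of large neutral amino acids. SLC7A5 measured 2511, 2321 and 2270.5 CPM with vehicle and 2317, 2295 and 2314 CPM with compound, at a log2 fold change of -0.04 ± 0.05 (edgeR adjusted p = 0.783). SLC3A2 ranged from 772 to 889 CPM over the 6 libraries (-0.06 ± 0.06, edgeR adjusted p = 0.696). SLC7A1, a carrier of cationic amino acids, measured 295 CPM in vehicle library 2 and 362 to 373 CPM in the other 5 libraries (0.10 ± 0.07, edgeR adjusted p = 0.556).

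Among the secreted and surface products, STC2 came next to PPP1R15A in how cleanly the groups parted. It encodes stanniocalcin 2, a secreted glycoprotein. Its level was 48.2, 46.6 and 50.9 CPM with vehicle and 55.9, 55.2 and 54.9 CPM with compound, so that every compound library was above every vehicle library. The log2 fold change of 0.19 ± 0.06, or 1.14-fold (95% interval 1.03 to 1.25), did not pass (edgeR adjusted p = 0.201), and passed without vehicle library 3 (0.22, adjusted p = 0.0299). VLDLR, a lipoprotein receptor gene, stayed between 26.0 and 29.2 CPM in all 6 libraries. GDF15, a stress cytokine gene, had 15 to 30 counts per library, which gave a wide 95% interval of 0.436-fold to 1.31-fold (edgeR adjusted p = 0.647).

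The 9 cytosolic tRNA synthetase genes and XPOT, which encodes the nuclear export receptor of tRNA, had 0 of 10 members called. Over all tested genes 1.89% were called. None of the 10 had an unadjusted p below 0.05 either in edgeR, where 14.4% of all tested genes did. With only 10 genes neither count sets them apart from the background. Leaving CARS1 aside, the log2 fold changes ran from -0.09 for MARS1 and AARS1 to 0.11 for XPOT, and each of these 9 intervals lay inside 1.2-fold. AARS1, the alanine enzyme, measured 232, 238 and 226 CPM with vehicle and 224, 220.0 and 213 CPM with compound. Its groups did not overlap, yet the difference of -0.09 ± 0.05 did not pass (edgeR adjusted p = 0.495).

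GARS1, SARS1 and WARS1, for glycine, serine and tryptophan, measured 247 to 257, 191 to 205 and 114 to 123 CPM over the 6 libraries. NARS1, for asparagine, ranged from 457 to 488 CPM, MARS1, for methionine, from 379.8 to 423 CPM and IARS1, for isoleucine, from 784 to 888 CPM. EPRS1, which carries both the glutamate and the proline activity, measured 412, 379 and 449 CPM with vehicle and 444, 443 and 446 CPM with compound. XPOT showed the same arrangement, with 542, 523 and 604 against 600.1, 595 and 605 CPM. In both genes vehicle library 3 sat at the compound level and vehicle libraries 1 and 2 below it. Their log2 fold changes of 0.10 ± 0.06 and 0.11 ± 0.06 did not pass (edgeR adjusted p = 0.481 and 0.438), and both passed without vehicle library 3 (0.17 and 0.17, adjusted p = 0.0450 and 0.0277).

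CARS1, the cysteine enzyme, had the lowest level per kilobase of the 9 synthetases (0.723 CPM per kilobase with vehicle, next to 18.5 for WARS1) and the widest spread. It measured 5.09, 13.1 and 3.58 CPM with vehicle and 4.63, 3.82 and 4.13 CPM with compound. Vehicle library 2 held 251 counts where the other 5 libraries held 95 to 132. The log2 fold change was -0.76 ± 0.53 (edgeR adjusted p = 0.578) with all libraries and -0.036 without vehicle library 2 (adjusted p = 0.961). GENCODE 29 has other genes over 2.80% of its exonic bases, but which gene models were counted is not given in the sources used here, so its low count may not reflect its expression. That was not tested.

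**Figure D3:**
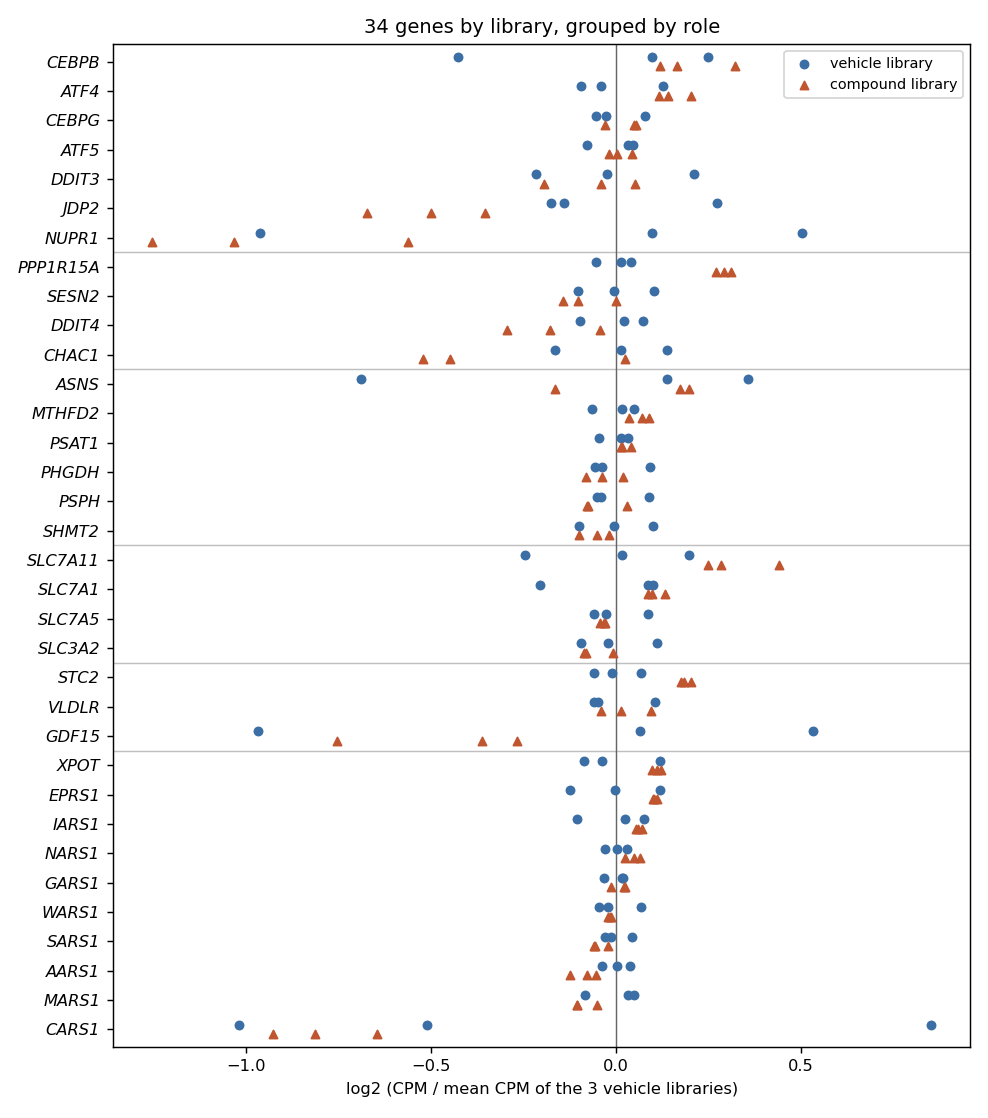
Level of each of the 34 genes in each library as log2 of its CPM over the mean CPM of the 3 vehicle libraries, with vehicle as circles and compound as triangles. Compound points lie clear of vehicle points for PPP1R15A, SLC7A11 and STC2 on the higher side and for JDP2 and AARS1 on the lower side, and CARS1 shows 1 vehicle library far to the right.

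In 5 of the 34 transcripts the groups did not overlap, with compound higher in 3 (PPP1R15A, SLC7A11 and STC2, beside 11.3% of all tested genes) and lower in 2 (JDP2 and AARS1, beside 9.84%). That is 14.7% of the list, below the 21.1% of all tested genes whose groups did not overlap. Unadjusted p-values below 0.05 were found for 6 members, ATF4, NUPR1, JDP2, PPP1R15A, SLC7A11 and STC2, or 17.6%, beside 14.4% of all tested genes.

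Compared per kilobase of exonic length, the levels with vehicle spanned a wide range. The highest was SLC7A5 at 499 ± 26.8 CPM per kilobase, followed by ATF4 at 214 ± 17.5, SLC3A2 at 159 ± 11.5 and PSAT1 at 123 ± 3.55 (SD, n = 3). SLC7A5, ATF4 and SLC3A2 were each apart from the next gene in all 6 libraries. PSAT1 overlapped NARS1, and NARS1 overlapped IARS1. Likewise EPRS1 overlapped XPOT, and XPOT overlapped SHMT2. PPP1R15A stood at 21.4 ± 0.712 CPM per kilobase with vehicle and 26.2 with compound. The lowest levels were those of JDP2 at 0.575, GDF15 at 0.519, ASNS at 0.256 and NUPR1 at 0.241 CPM per kilobase, and neighbours among these 4 overlapped.

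The element through which ATF4 and its C/EBP partners are known to act, the C/EBP-ATF response element, was looked for as TGATGNAA on either strand of the same promoter windows. It was present for 12 of the 30 members with a promoter in the table (40.0%) and for 4.46% of all 27305 genes. The members were listed as ATF4 and CHOP targets, so this share describes how they were picked. The sites of the 8 members that carry C at the variable base are given to show genes that hold the element and did not pass. Each window is 30 bases on the strand of the gene, from the RefSeq windows on GRCh38.p14, with the element in capitals (it reads TTGCATCA where it lies on the opposite strand).
CEBPG, chr19:33374060-33374089, plus strand: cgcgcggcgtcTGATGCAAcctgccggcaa
JDP2, chr14:75427995-75428024, plus strand: atagccggggcTGATGCAAcccgtcccgcc
CHAC1, chr15:40953251-40953280, plus strand: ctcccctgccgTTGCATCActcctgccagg
AARS1, chr16:70289675-70289704, minus strand: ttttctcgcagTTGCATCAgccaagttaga
CARS1, chr11:3057407-3057436, minus strand: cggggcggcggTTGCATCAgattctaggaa
IARS1, chr9:92293692-92293721, minus strand: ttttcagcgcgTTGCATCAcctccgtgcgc
MARS1, chr12:57488053-57488082, plus strand: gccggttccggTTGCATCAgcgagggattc
NARS1, chr18:57621804-57621833, minus strand: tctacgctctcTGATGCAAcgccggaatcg
The other 4 members with the element were ASNS, GARS1, SLC3A2 and SLC7A1. None of the 12 was called, beside 1.89% of all tested genes. Their log2 fold changes ran from -0.76 to 0.10 with a median of -0.024. The 18 members without a match had a median of 0.016, and PPP1R15A was the one called among them. NUPR1, PSPH, SHMT2 and SLC7A11 had no promoter window and are in neither group. Elements outside the windows were not searched, so the split does not part members that answer to ATF4 from those that do not. SLC7A11 held the highest log2 fold change of the list (0.32) and NUPR1 the lowest (-0.89). The CArG box, the element of serum response factor, was found for 1 member, GARS1, and for 1.60% of all genes.

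Leaving out single libraries moved the calls more than any other choice. Without vehicle library 3, 5 members were higher (PPP1R15A, SLC7A11, STC2, EPRS1 and XPOT) and NUPR1 was lower. That is 6 of 34 in a fit that called 11.4% of all tested genes, 7.36% higher and 4.0% lower. Without vehicle library 2, PPP1R15A and ATF4 were higher, where 2.6% of all tested genes were called, 1.6% higher. With vehicle library 1 or any single compound library left out no member was called, and, without vehicle library 1, the share of all tested genes called was 0.584%, and 0.854%, 0.683% and 0.676% without compound libraries 1, 2 and 3. Among the vehicle libraries, library 3 held the lowest value for 19 of the 34 members and the highest for 10, so it was at one end for 85.3%, beside 73.3% of all tested genes. Library 2 was highest for 18 members and lowest for 7, at one end for 73.5%, beside 75.1% of all tested genes. The coefficient of variation of the members had a median of 6.47% over the vehicle libraries and 2.94% over the compound libraries. All tested genes had 10.1% and 5.13%, and the members were not matched to them for level.

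**Figure D4:**
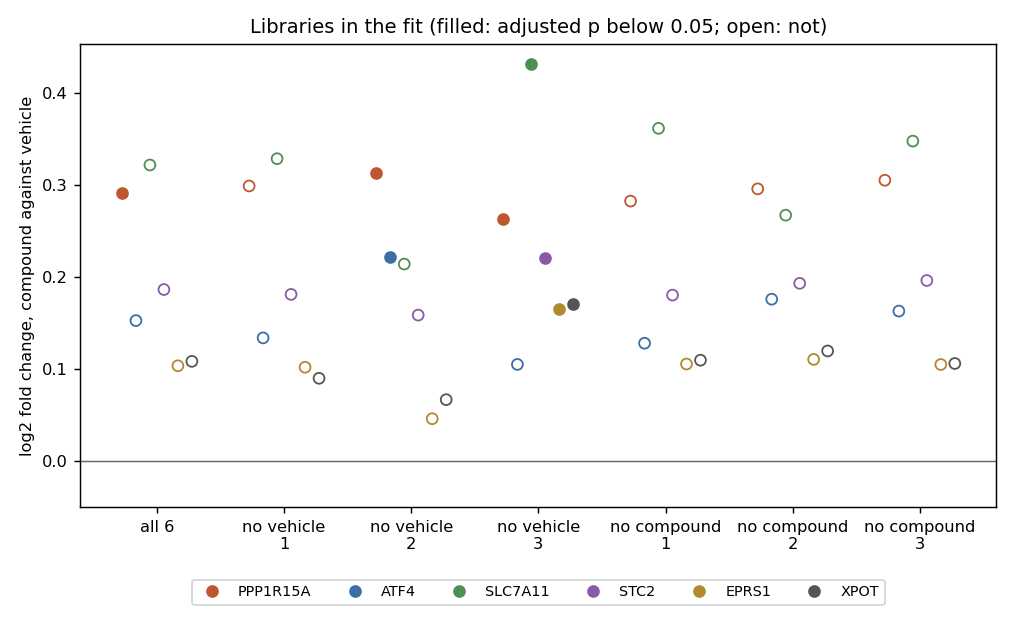
Log2 fold change of compound against vehicle for 6 members with all libraries and with each library left out in turn, filled where the adjusted p was below 0.05. PPP1R15A stays between 0.26 and 0.31 throughout but is filled in 3 of the 7 fits, and SLC7A11, STC2, EPRS1 and XPOT are filled only without vehicle library 3.

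Other genes of the pathway were a list of 74 grouped by role and chosen with earlier results of these data known. It held 3 called among the 70 that could be tested, 1 higher and 2 lower (4.29%, beside 1.89% of all tested genes). Because of that choice, and with only 3 calls, the share is a description and does not measure an excess. The gene called higher was SLC38A2, whose product SNAT2 carries small neutral amino acids and is a known ATF4 target. It measured 379, 374 and 440.0 CPM with vehicle and 533, 546 and 537 CPM with compound, a log2 fold change of 0.44 ± 0.07 or 1.35-fold (edgeR adjusted p = 0.00336), and missed the threshold only without vehicle library 1 (0.40, adjusted p = 0.0732). Both genes called lower encode mitochondrial synthetases. MARS2, for methionine, went from 43.3 ± 1.21 to 34.5 ± 0.659 CPM (log2 fold change -0.33 ± 0.07, edgeR adjusted p = 0.0223), and HARS2, for histidine, from 35.4 ± 1.45 to 28.1 ± 0.415 CPM (-0.34 ± 0.07, adjusted p = 0.0266). Neither passed with vehicle library 1 or any one of the compound libraries removed (adjusted p = 0.101 to 0.177). The other 14 mitochondrial synthetases tested did not pass, nor did any of the 12 further cytosolic synthetases or the 3 scaffold genes of the synthetase complex, among them FARSA (-0.14 ± 0.07, adjusted p = 0.389) and EEF1E1 (-0.19 ± 0.12, adjusted p = 0.507). FARSA passed without vehicle library 3 (adjusted p = 0.0237).

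Upstream of ATF4 none of the 4 eIF2 kinase genes passed. EIF2AK3, which encodes PERK, the kinase of endoplasmic reticulum stress, came nearest. It measured 13.9, 11.9 and 13.4 CPM with vehicle and 17.0, 17.8 and 16.5 CPM with compound, so its groups did not overlap (0.38 ± 0.09, edgeR adjusted p = 0.0553). PPP1R15B, the constitutive counterpart of PPP1R15A, measured 89.4, 78.5 and 94.5 against 99.5, 105 and 110 CPM and also did not pass (0.26 ± 0.07, edgeR adjusted p = 0.117). Both passed without vehicle library 3 (adjusted p = 0.0223 and 0.00859), and in DESeq2 (adjusted p = 0.0412 and 0.0425). The 9 genes of eIF2, eIF2B and the related EIF2A had 0 calls, beside 1.89% of all tested genes. EIF2A was highest among them at 0.15 ± 0.05 (edgeR adjusted p = 0.240). The GCN2 regulator IMPACT and the mitochondrial relay gene DELE1 stood at -0.08 ± 0.08 and -0.04 ± 0.08 (edgeR adjusted p = 0.689 and 0.829). KLHL24, a further reported ATF4 target that encodes a ubiquitin ligase adaptor, was at 0.42 ± 0.11 (edgeR adjusted p = 0.0892), and passed without vehicle library 3 (adjusted p = 0.00145). Of the 6 tested genes in its role 5 had log2 fold changes above 0 and 1 below (median 0.14). Over the 70 pathway genes 32 were above 0 and 38 below. In KLHL24, TNFRSF10B and NDRG1 the groups did not overlap, with compound higher, beside 11.3% of all tested genes. None of the 6 was called. The highest value among the 70 pathway genes, 1.06 ± 1.41 for VARS1, came from counts of 12, 64 and 13 with vehicle and 201, 10 and 27 with compound, which overlap widely (edgeR adjusted p = 0.781). The same limit of unknown gene models holds for these low counts, and it was not tested. In FGF21, ADM2, VARS2 and SLC7A3, which were too low to test, no library had more than 4 counts.

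**Figure D5:**
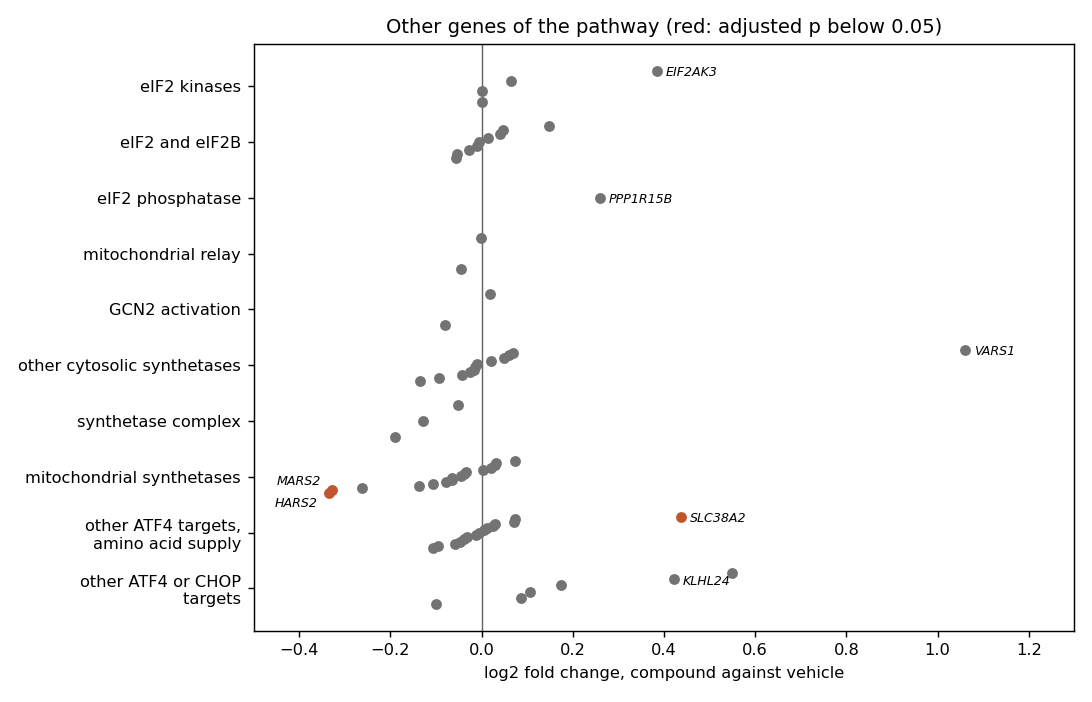
Log2 fold change of compound against vehicle for the 70 tested pathway genes outside the list, 1 point per gene, in rows by role (height within a row only separates points). SLC38A2 on the right and MARS2 and HARS2 on the left, in red, passed at an adjusted p below 0.05.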

How the data were processed

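RNA from 6 HEK293A samples was sequenced. The authors deposited unnormalized read counts for each Ensembl ID, made with HISAT2 2.2.1 and HTSeq 0.9.1 on hg38, per the submitters' processing notes. Annotation release and strand setting: not given in the sources used here. So genes with overlapping or antisense neighbours are uncertain. Symbols were matched to 60357 of 60676 IDs, and 58503 IDs were found in GENCODE 29, which gave coordinates (1-based), exonic lengths and overlaps.

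Compound was compared with vehicle in edgeR 4.0.16 (R 4.3.3) using filterByExpr, TMM factors and the two-sided quasi-likelihood F-test with robust dispersion, adjusted over all 15577 genes tested and called at an adjusted p below 0.05. SE is the log2 fold change over the square root of F, intervals use the test's degrees of freedom, and CPM are counts over TMM-scaled library sizes. A count of 0 allows up to 3 counts, as counting error only. On simulated counts for this comparison (15339 genes tested) 42% of genes changed 1.3-fold were recovered. The shares were 49% at 1.5-fold and 80% at 2-fold. There were 6 false calls.

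The members, the pathway list and the rules were chosen with earlier results of these data known. All 34 members are named. Full values are given for called members, for ATF4, DDIT3, ASNS, CHAC1, SESN2 and DDIT4, for the 3 highest and 3 lowest fold changes and for unadjusted p below 0.05. Of the pathway list the called genes and the smallest p in each role are given, several of them without the value of each library. Values of further genes were chosen after they were seen. Alternatives were DESeq2 1.42.0, edgeR with DESeq2-type size factors, library size alone, a fit of all genes with any count, genes averaging 1 CPM or more, a block on replicate number, limma-voom (limma 3.58.1) and leaving out each library. The cyclic AMP response element and CArG box searches were added after seeing the data. Not every gene of the marker lists is reported here.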

Additional observations from a re-analysis of the deposited data

How the results depend on the processing

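With 1 of 34 members called in the main comparison, 2 were called without the count filter (PPP1R15A and SLC7A11) and 0 to 6 when single libraries were left out. The other pathway genes had 3 of 70 called, 7 of 66 with DESeq2 and 6 of 73 without the count filter. With single libraries left out, 0 to 9 of the 70 were called. Over all tested genes 294 were called (1.89%), 419 with DESeq2 (3.54%) and 713 without the count filter (2.29%). With single libraries left out this was 93 to 1806 genes (0.584% to 11.4%). With the replicate block 1 of 34 members, 4 of 70 pathway genes and 339 of all 15577 genes were called. Same-numbered vehicle and compound libraries did not deviate together (r = -0.070, 0.028 and -0.014 over genes), and not every library correlated best with its own number. With 3 libraries a group these correlations cannot show whether the numbers pair the libraries. With library size alone the sign turned for ATF5 (-0.013), PSAT1 (-0.00091), VLDLR (-0.0032) and GARS1 (-0.013). Leaving out single libraries, the sign turned within these ranges of log2 fold change: DDIT3 -0.16 to 0.063, ATF5 -0.031 to 0.035, CEBPG -0.0016 to 0.064, ASNS -0.17 to 0.26, PHGDH -0.064 to 0.015, PSPH -0.072 to 0.0064, SLC7A5 -0.068 to 0.0087, SLC3A2 -0.11 to 0.00097, VLDLR -0.012 to 0.076, GARS1 -0.0047 to 0.027, WARS1 -0.042 to 0.018 and, among pathway genes, DELE1 -0.13 to 0.010. None of these 13 genes was called in any of those fits. The cause of these shifts was not tested. PPP1R15A passed in all 7 alternatives that kept every library. The simulation planted changes in genes drawn at random from all tested genes, with the same dispersion in both groups. At 1.3-fold it recovered 42% of changed genes, which is not a recovery rate for the 33 members that did not pass. Small changes among those members may still be missed at 3 libraries a group.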
